A study of Mus musculus with 11 samples.

Results

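Oc90, the otoconin gene, and 8 other genes grouped with it as genes of the cochlear roof were followed across the 4 ages of a single-cell RNA-seq series of the mouse cochlea. The genes were taken by symbol, Oc90, Ttr, Vmo1, Slc26a4, Sparcl1, Rnase1, Enpep, Slc6a15 and Dapl1, and all 9 were found among the 24898 genes listed in any of the deposited tables. The series holds 11 droplet libraries of dissociated cochlear epithelium from wild-type CD1 mice, 2 at embryonic day 14 (E14), 3 at E16, 4 at postnatal day 1 (P1) and 2 at P7, with no other allele or treatment. The tissue was freed with thermolysin and DNase, and the labels name the cells as those of the sensory epithelium. By the study's methods, cochleae of several animals were pooled before dissociation, and the roof and lateral wall were cut away so as to keep the floor. The p-values therefore measure the spread between pools of animals. Each cell was scored by the share of its unique molecular identifiers (UMIs, 1 per captured transcript) that came from Oc90, and cells with at least 0.5% were called Oc90-high. This took 1495 of 30634 cells, of which 868 came from E14, 468 from E16, 155 from P1 and 4 from P7.

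The cochlear duct is a closed epithelial tube. Its floor carries the sensory hair cells and their supporting cells, its roof becomes Reissner's membrane, and its lateral wall becomes the stria vascularis, whose marginal cells secrete potassium into the endolymph. Oc90 encodes otoconin-90, the main core protein of the otoconia, the crystals of the utricle and saccule. It is also made in nonsensory epithelium of the cochlea, which has no otoconia. Among the other genes, Ttr encodes transthyretin, a secreted carrier of thyroid hormone and of the retinol-binding protein, and Vmo1 and Rnase1 encode a small secreted protein first known from the egg's vitelline membrane and a secreted ribonuclease. Slc26a4 encodes pendrin, an exchanger of chloride and bicarbonate whose loss causes deafness with an enlarged vestibular aqueduct, and Slc6a15 a transporter of neutral amino acids. Enpep encodes aminopeptidase A, a membrane enzyme that trims angiotensin II, Sparcl1 a secreted matricellular protein, and Dapl1 a small protein related to the death-associated protein Dap.

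Libraries held between 1247 and 5598 cells, with medians of 2478 to 5647.5 UMIs a cell. Pairs of libraries shared 1 to 36 cell barcodes (median 9, 55 pairs). In the GENCODE annotation of GRCm38 the 9 genes lie on 9 chromosomes, Oc90 on chromosome 15 (65876053 to 65912397), Vmo1 on chromosome 11 (70513516 to 70514616), Rnase1 on chromosome 14 (51144998 to 51146785) and Enpep on chromosome 3 (129269175 to 129332720), all on the minus strand.

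Few cells lay between low and high Oc90. Of 30634 cells, only 45, 67, 27 and 1 at E14, E16, P1 and P7 lay between 0.2% and 1%, around the threshold. The median share of Oc90 within Oc90-high cells was 3.16% in the E14 cells, 3.14% in those of E16, 4.65% in those of P1 and 2.06% in those of P7, and the highest cell reached 17.1%. These cells held 93.3% to 98.8% of all Oc90 UMIs of a library in the 9 libraries of E14, E16 and P1. Markers of roof epithelium other than the 9 genes were present in them: 5 of 6 lay at 10 UMIs per 1000000 (CPM) or more at E14, E16 and P1, and their summed level was 388 to 728 CPM. Markers of other epithelia were present too. All 8 of 8 interdental markers lay at 10 CPM or more at E14 and at E16, with a summed level of 2795 to 2913 CPM in the E14 libraries against 1340 to 1462 CPM in their other cells, and 7 of 8 markers of the lesser epithelial ridge and outer sulcus did so at E14 (1427 to 1841 CPM, against 4510 to 5820 CPM). The cells are therefore called only by the Oc90 rule.

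Oc90-high cells made up 14.6% and 17.9% of the cells of the E14 libraries, 4.49%, 3.98% and 7.69% of those of E16, 1.81%, 0.734%, 0.357% and 1.11% of those of P1, and 0% and 0.250% of those of P7. The 0 of 1775 cells in P7 replicate 4 has an exact 95% upper limit of 0.208%, which covers counting error only. Every embryonic library lay above every postnatal one, with 9.74% ± 6.23 (SD, n = 5) against 0.711% ± 0.666 (SD, n = 6). The difference was 9.03 percentage points (exact two-sided permutation test, p = 0.00433). How the duct was cut at each age can set this share, and its part was not tested.

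Within Oc90-high cells the level of Oc90 chose the cells, so that its values are a description. Oc90 stood at 35596 and 32636 CPM in the E14 libraries, 24794, 22482 and 40055 at E16, 52873, 62879, 43342 and 47801 at P1 and 28364 in the 4 cells of P7. The P1 libraries were higher than those of the other ages. The 4 P7 cells all came from replicate 5, and no comparison with P7 was made for Oc90-high cells.

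Vmo1 rose at both steps. Its level in Oc90-high cells was 91.5 and 63.9 CPM at E14, 260, 228 and 621 CPM at E16, and 10091, 7632, 5653 and 6032 CPM at P1. The 3 ages did not overlap, and the step from E16 to P1 was the larger. The share of all genes whose ages do not overlap was not counted, here or below. On the log2(CPM + 10) scale Vmo1 was higher by 1.99 (SE 0.37) at E16 than at E14 (limma, adjusted p = 0.0283) and by 4.38 (SE 0.31) at P1 than at E16 (adjusted p = 2.91e-07). Of all 8933 genes tested in these cells, 0.19% were called higher at E16 than at E14 and 0.414% higher at P1 than at E16, and the median gene moved by -0.12 and -0.11. The call at the first step was lost without E14 replicate 1 or 2 (adjusted p = 0.116 and 0.308), E16 replicate 1, 2 or 3 (0.118, 0.0617 and 0.0835) and P1 replicate 2 or 4 (0.0625 and 0.0617). In cells drawn down to 1500 UMIs, Vmo1 had a UMI in 9.94% and 7.51% of Oc90-high cells at E14, in 19.6%, 17.0% and 35.7% at E16 and in 91.2%, 87.5%, 100% and 93.5% at P1. In the cells of the Postn clusters alone, which are described further on and made up 295 of 868, 236 of 468 and 149 of 155 Oc90-high cells at these ages, the shares were 23.8% and 23.0%, then 38.1%, 46.2% and 59.1%, then 92.5%, 87.5%, 100% and 93.0%. These did not overlap between ages either.

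Rnase1 followed the same course. Its level was 42.3 and 16.3 CPM at E14, 164, 117 and 443 at E16, and 4774, 1434, 2568 and 5427 at P1. Again the 3 ages did not overlap. Separation of E14 from E16 was not particular to Vmo1 and Rnase1, since Ttr, Sparcl1, Enpep and Dapl1 did not overlap either, without a call. The share of all genes that separate so was not counted, and the separation is a description. The step of Rnase1 from E14 to E16 was 2.54 on the log2 scale (SE 0.54) and missed the threshold (limma, adjusted p = 0.0633). It passed in only 4 of 23 alternatives, and the adjusted p reached 0.7 in another. Those that passed include an Oc90 threshold of 1% (adjusted p = 0.0477) and quantile normalization (adjusted p = 0.0324). From E16 to P1 Rnase1 rose by 3.86 (SE 0.45, adjusted p = 0.000197).

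Enpep moved the other way. It stood at 162 and 205 CPM at E14 and 325, 490 and 219 at E16, and at 80.5, 111, 63.1 and 28.5 at P1, below every embryonic library. It was lower at P1 than at E16 by 2.18 on the log2 scale (SE 0.39, limma, adjusted p = 0.0057), against 1.23% of all genes called lower. The call was lost without E16 replicate 1 (adjusted p = 0.0908) or E16 replicate 2 (adjusted p = 0.104), and its direction depended on which Oc90-high cells were compared, as given with the clusters.

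For the other members neither step passed the test in this fit. Ttr was 480 and 253 CPM at E14, 1147, 619 and 2309 at E16 and 2494, 1368, 2608 and 901 at P1. The E16 libraries were all above those of E14, with a log2 difference of 1.73 (adjusted p = 0.289), and those of E16 and P1 overlapped. Dapl1 was 248 and 272 CPM at E14, 372, 338 and 564 at E16 and 1026, 564, 555 and 379 at P1, with log2 differences whose adjusted p-values were 1.0 and 0.478. Slc6a15 was 373 and 259, then 274, 249 and 320, then 257, 83.9, 72.0 and 91.3 CPM. P1 replicate 1 stood apart from the other 3 P1 libraries, and the step from E16 to P1, -1.27 on the log2 scale (SE 0.37, adjusted p = 0.098), became -1.65 with an adjusted p of 0.0062 without that library. Sparcl1 was 197 and 250, then 273, 364 and 282, then 91.2, 102, 242 and 347 CPM, with an adjusted p of 0.355 at the second step. Slc26a4 lay near 0 in these cells, with 13.4 and 19.5 CPM at E14, 6.64, 30.4 and 11.2 at E16 and 20.4, 20.9, 0 and 0 at P1, which rest on 0 to 57 UMIs in a library. A change in Slc26a4 was not detectable at this depth.

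**Figure D1:**
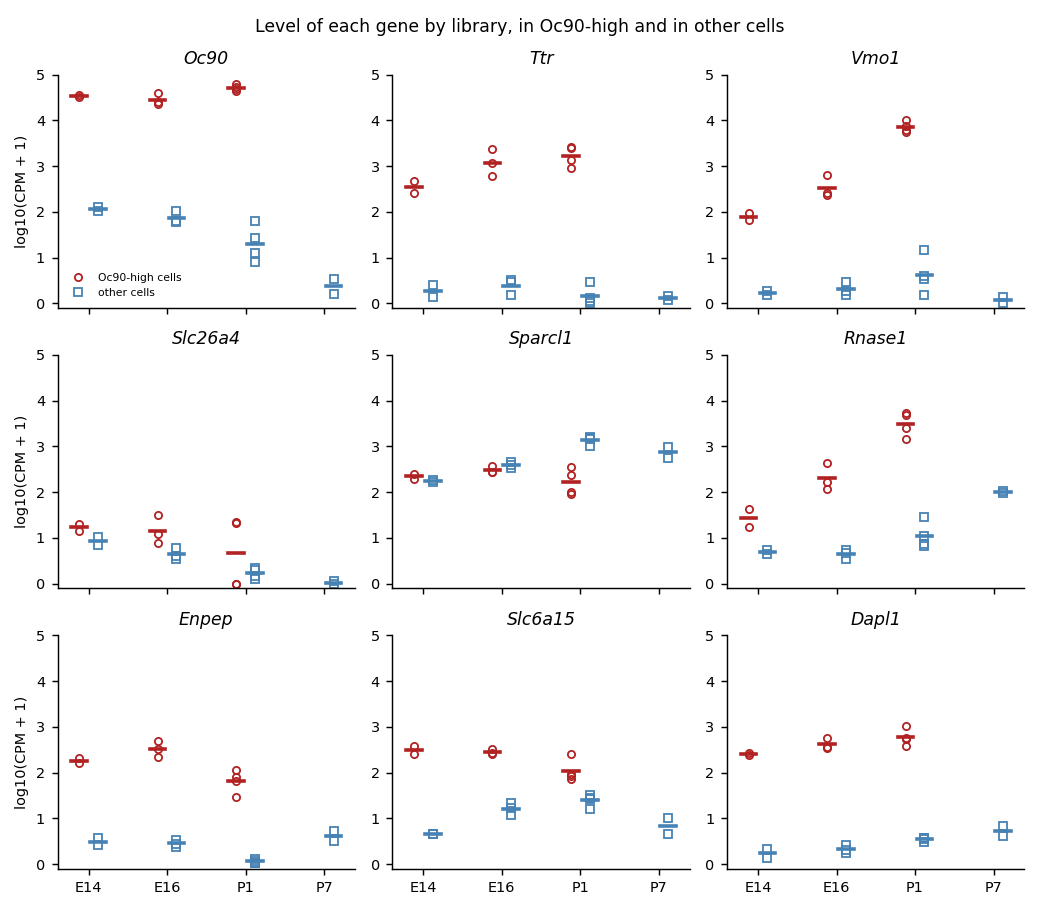
Level of each gene in each library on a log10(CPM + 1) axis, by age. Red circles are the Oc90-high cells of a library, blue squares are its other cells, and bars are means of the plotted values. Vmo1 and Rnase1 in Oc90-high cells climb from E14 to P1 and Enpep is lowest at P1. Sparcl1 is higher in the other cells from E16 on. The 4 Oc90-high cells of P7 are not plotted.

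Sequence just upstream is shown for the genes that passed the test at the step from E16 to P1, because Vmo1 and Rnase1 rose at the same step at which Enpep was lower. RefSeq windows of GRCm38.p6 were matched for 5 of the 9 genes, Vmo1, Rnase1, Enpep, Slc26a4 and Dapl1. The 250 bases before the start of Vmo1 are chr11:70514617-70514866, those of Rnase1 chr14:51146768-51147017 and those of Enpep chr3:129332750-129332999, all on the minus strand and printed 5′ to 3′ in the direction of the gene. Starts here are those of RefSeq, which lies 18 bases within the GENCODE model for Rnase1 and 29 bases upstream of it for Enpep. Capitals mark the letters TAATCC, the core bound by homeodomain proteins of the Otx type, and TATAAA, the TATA box, each searched on both strands and not overlapping.
Vmo1: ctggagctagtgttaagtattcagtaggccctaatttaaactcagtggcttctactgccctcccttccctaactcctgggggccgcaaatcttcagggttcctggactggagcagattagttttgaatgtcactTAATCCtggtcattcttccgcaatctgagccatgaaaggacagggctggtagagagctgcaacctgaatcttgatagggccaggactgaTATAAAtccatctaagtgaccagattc
Rnase1: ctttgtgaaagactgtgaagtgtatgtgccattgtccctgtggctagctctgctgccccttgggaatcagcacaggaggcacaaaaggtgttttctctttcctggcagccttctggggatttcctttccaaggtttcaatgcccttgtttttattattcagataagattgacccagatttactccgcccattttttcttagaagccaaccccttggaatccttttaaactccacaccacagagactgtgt
Enpep: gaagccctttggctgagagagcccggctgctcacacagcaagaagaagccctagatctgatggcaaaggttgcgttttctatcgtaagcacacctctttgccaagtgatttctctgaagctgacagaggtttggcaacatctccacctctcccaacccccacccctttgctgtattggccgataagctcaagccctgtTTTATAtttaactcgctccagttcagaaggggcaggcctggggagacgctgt
Vmo1 holds TAATCC from 116 to 111 bases before the start and TATAAA from 27 to 22 bases before it. Enpep holds TATAAA on the opposite strand from 52 to 47 bases before the start, and Rnase1 holds neither set of letters. Among the windows not printed, Slc26a4 and Dapl1 hold TATAAA at 31 to 26 and 29 to 24 bases before the start. Of all 32851 RefSeq windows of this length, 6.25% hold TAATCC and 12.4% hold TATAAA, and a match describes the letters only.

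Oc90-high cells fell into clusters that split the 9 genes into groups. Cells were clustered within each age without the 9 genes, and 6 clusters held most Oc90-high cells. They are called here by their leading genes: a Postn cluster at E14 (295 Oc90-high cells), E16 (236) and P1 (149), an Anxa1 cluster at E14 (373) and E16 (198), and a Frem2 cluster at E14 (166). No Anxa1 or Frem2 cluster of Oc90-high cells was found at P1, where 6 further cells lay elsewhere. Differences between clusters are a description with no test, since the clusters were drawn from the same cells.

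Ttr, Vmo1 and Rnase1 were genes of the Postn clusters. Ttr stood at 1174 and 830 CPM in the 2 E14 libraries of the Postn cluster, 2765, 1695 and 3899 CPM at E16, and 2531, 1368, 2608 and 980 CPM at P1, and at 0 to 8.33 CPM in the Anxa1 and Frem2 clusters. Vmo1 was 224 and 199 CPM in the E14 Postn cluster, 489, 623 and 1039 CPM at E16, and 10231, 7632, 5653 and 6393 CPM at P1, and at most 10.3 CPM in the other named clusters. Rnase1 was 105 and 51.4 CPM at E14, 346, 291 and 744 at E16 and 4846, 1434, 2568 and 5833 at P1, against 0 to 43.7 CPM in the Anxa1 and Frem2 clusters. No library of these 2 cluster families reached the lowest Postn library of its age for Ttr, Vmo1 or Rnase1.

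Slc6a15 and Dapl1 were also higher in the Postn clusters, but not absent elsewhere. Slc6a15 was 821 and 749 CPM in the E14 Postn cluster and 534, 626 and 504 CPM at E16, against 22.7 to 87.6 CPM in the Anxa1 and Frem2 clusters, and 261, 83.9, 72.0 and 95.6 CPM in the P1 Postn cluster. Dapl1 was 502 and 551 CPM, then 704, 812 and 779 CPM, then 1037, 564, 555 and 404 CPM in the Postn clusters of E14, E16 and P1, and 27.5 to 253 CPM in the others.

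At E14 and E16 Enpep and Sparcl1 showed the opposite pattern. Enpep was 293 and 337 CPM in the E14 Anxa1 cluster, 242 and 224 CPM in the Frem2 cluster and 638, 840 and 574 CPM in the E16 Anxa1 cluster, against 7.66 and 8.47 CPM in the E14 Postn cluster and 16.8 to 49.2 CPM in that of E16. Sparcl1 was 389 and 422 CPM in the E14 Anxa1 cluster, 230 and 183 in the Frem2 cluster and 499, 647 and 683 in the E16 Anxa1 cluster, against 14.0 to 77.0 CPM in the embryonic Postn clusters. At P1, where 149 of 155 Oc90-high cells lay in the Postn cluster, Sparcl1 was 91.2 to 347 CPM in the Oc90-high cells of a library. That range overlaps the Frem2 cluster. Slc26a4 was highest in the Frem2 cluster, at 57.7 and 79.1 CPM, against 1.54 and 5.65 CPM in the E14 Anxa1 cluster, 0, 52.9 and 28.8 CPM in that of E16, on at most 15 UMIs a library, and 0 to 1.31 CPM in the embryonic Postn clusters. Oc90 itself was high in every cluster, with means of 27666 to 52627 CPM.

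The same split showed cell by cell. In 7 libraries with enough cells of both kinds, and with each cell drawn down to 1500 UMIs, Enpep had a UMI in 1.40% of the Oc90-high cells with a Ttr UMI and in 26.2% of those without one, as means over libraries, and it was higher in the cells with Ttr in 1 of 7 libraries. Vmo1 had a UMI in 59.7% of the cells with Ttr and 31.8% of those without, and Slc6a15 in 54.9% and 17.3%, each higher in 7 of 7. Sparcl1 had a UMI in 45.6% of cells with Enpep and 13.9% of cells without it, higher in 6 of 6 libraries. Other pairs were less even: Rnase1 was higher in cells with Slc6a15 in 5 of 7 libraries, and Sparcl1 in cells with Slc26a4 in 1 of 2.

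Markers of other cell types differed between the clusters. Markers of strial marginal cells were at 10 CPM or more for 5 of 5 genes in the E16 Anxa1 cluster, with a summed level of 387 to 563 CPM. They include Kcne1, a subunit of the potassium channel of these cells, at 108 CPM ± 40.7 (SD, n = 3), and Esrrb, an orphan nuclear receptor of the stria, at 87.0 CPM ± 34.7 (SD, n = 3). In the Postn cluster of the same age 1 of 5 reached 10 CPM, the sum was 18.6 to 90.4 CPM, and Kcne1 was at 0. Otx2, a transcription factor of the roof, was 202 CPM ± 3.06 (SD, n = 2) in the E14 Postn cluster, 103 CPM ± 12.02 (SD, n = 2) in the E14 Anxa1 cluster and 43.3 CPM ± 19.4 (SD, n = 2) in the Frem2 cluster. The sums of the 6 roof markers ran the other way at E14, at 580 to 616 CPM in the Postn cluster, 632 to 746 CPM in the Anxa1 cluster and 924 to 946 CPM in the Frem2 cluster, where 5, 4 and 6 of 6 reached 10 CPM. Most of the Frem2 sum was Gata2 at 671 CPM, a gene also listed for the lesser epithelial ridge and outer sulcus. Lmx1a was at 164 CPM there, and Otx1, Msx1 and Wnt4 were at 20.4, 18.9 and 18.2 CPM. In the E14 Frem2 cluster 8 of 8 markers of the lesser epithelial ridge and outer sulcus reached 10 CPM. Their summed level was 3023 to 3163 CPM, against 976 to 1321 CPM in the E14 Anxa1 and Postn clusters. Most of the Frem2 sum was Clu at 1770 CPM, Gata2 at 671 CPM and C1qtnf12 at 378 CPM. Bmp4 and Fbln2 were at 36.3 and 14.1 CPM there. Interdental markers were high in the Frem2 cluster as well, with Cdkn1c at 2128 CPM, H19 at 685 CPM and Krt19 at 308 CPM. Of the same list Otoa was at 0 and Matn1 at 5.44 CPM. Of the 8 markers of Kölliker's organ 4 reached 10 CPM in the Frem2 cluster. Almost all of their sum was Lum at 1204 CPM and Dcn at 544 CPM, both of small matrix proteoglycans, while Crabp1 was at 0. Of the 7 mesenchyme markers only Postn itself reached 10 CPM in the Postn clusters, and the collagen gene Col1a1 was at 0 in those of E14 and E16.

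**Figure D2:**
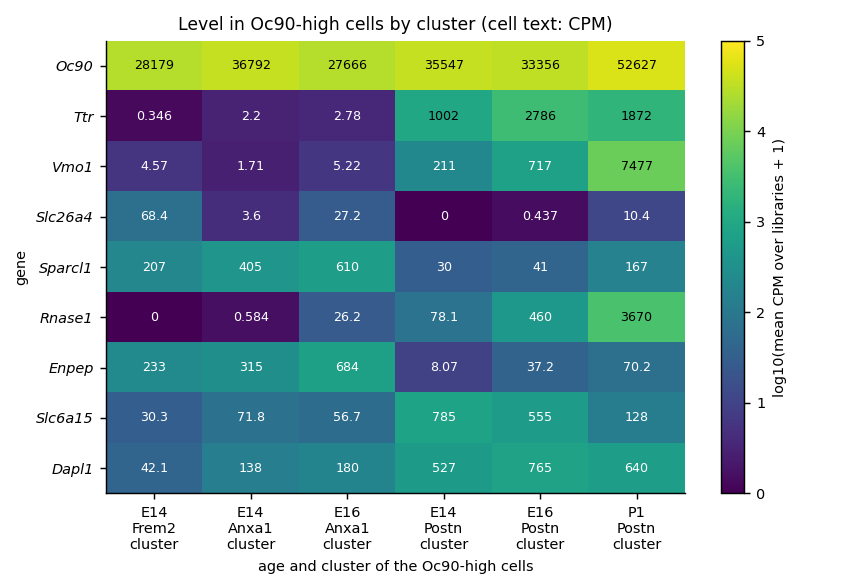
Mean level over libraries of the 9 genes in the clusters that held most Oc90-high cells, with the CPM printed in each cell and colour on a log10(CPM + 1) scale, to be read along a row. Ttr, Vmo1 and Rnase1 are high in the Postn clusters on the right. Enpep and Sparcl1 are higher in the Anxa1 and Frem2 clusters on the left than in the embryonic Postn clusters, while Slc26a4 is highest in the Frem2 cluster.

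Because the clusters present differed by age, the comparison of ages was repeated in the cells of the Postn clusters alone, a choice made after the data had been seen. Vmo1 was higher at E16 than at E14 by 1.65 on the log2 scale (limma, adjusted p = 0.0145) and at P1 than at E16 by 3.40 (adjusted p = 1.51e-08). Rnase1 was higher by 2.37 (adjusted p = 0.0195) and by 2.89 (adjusted p = 0.000189). Slc6a15 was lower at P1 than at E16 by 2.21 (SE 0.36, adjusted p = 0.00114), from 504 to 626 CPM down to 72.0 to 261 CPM. Enpep turned from lower to higher at P1, with a log2 difference of 0.71 that missed the threshold (adjusted p = 0.591). Sparcl1, Ttr and Dapl1 also changed sign, at 1.80, -0.61 and -0.34 (adjusted p = 0.105, 0.4 and 0.645). The calls for Vmo1 and Rnase1 from E16 to P1 thus held within 1 family of clusters, and that for Enpep did not. In this fit 31 genes were called higher and 78 lower at P1 than at E16, of 8922.

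Few genes with related roles passed the test in Oc90-high cells. None of the genes of 7 lists did so between E14 and E16, where 0.19% of all genes were called higher and 0% lower. Between E16 and P1 none passed as higher, against 0.414% of all genes, and the lists gave 1 lower of 11 tested genes of otoconia and acellular gels, 1 of 13 of endolymph ion transport and 1 of 9 of roof and lateral wall transcription factors, against 1.23% of all genes. No gene passed among 7 of thyroid hormone and retinol carriers, 3 angiotensin peptidases, 3 secreted ribonucleases or their inhibitor, and 2 Slc6 transporters. The gene called in the first list was Spp1, osteopontin, which went from 119 CPM ± 88.4 (SD, n = 3) at E16 to 0.646 CPM ± 1.29 (SD, n = 4) at P1, lower by 3.22 on the log2 scale (limma, adjusted p = 0.0057). Kcne1 fell by 2.36 on the log2 scale (adjusted p = 0.00745) and Esrrb by 2.28 (adjusted p = 0.00745), from 49.4 and 39.9 CPM at E16 to 1.36 and 0 CPM at P1. Spp1, Kcne1 and Esrrb met the filter of a mean of 10 CPM only through the embryonic libraries, the higher side of this step. Kcne1 and Esrrb belong to the strial marginal markers of the E16 Anxa1 cluster, and Spp1 is among the leading genes of that cluster. It has no counterpart among Oc90-high cells at P1, and the part of this in the lower levels was not tested. Among other partners of otoconin, Otog, a glycoprotein of acellular gels, was 104, 131 and 256 CPM at E14, E16 and P1 and Otol1, the collagen of otoconia, 31.4, 20.7 and 72.4 CPM, as means over libraries without a call at either step.

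The remaining 29139 cells were then examined for the same genes. Oc90 is above in Oc90-high cells by the rule that chose them. For 6 of the 8 other genes, Ttr, Vmo1, Rnase1, Enpep, Slc6a15 and Dapl1, Oc90-high cells were above the other cells of their library in 9 of 9 libraries of E14, E16 and P1, a pattern met by 7.25% of all 9094 genes, while 10.1% were below in 9 of 9. Slc26a4, which was too low for that count of genes, was above in 7 of 9 and Sparcl1 in 2 of 9. The genes had been listed with such results known, and the comparison is a description.

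Oc90 outside Oc90-high cells was set against how many of these cells a library held. Its level in the other cells was 126 and 102 CPM in the E14 libraries, 59.7, 62.6 and 104 in those of E16, 61.0, 11.3, 7.05 and 25.2 in those of P1 and 0.621 and 2.44 in those of P7. The threshold on Oc90 chose these cells and bounds their values, so that the levels are a description with no test. The Oc90-high cells gave 17.6% and 21.2% of the UMIs of the E14 libraries, 4.86%, 5.15% and 10.2% of those of E16, 1.70%, 0.902%, 0.363% and 1.15% of those of P1 and 0% and 0.134% of those of P7. As a description over the 11 libraries, in which both values come from the same threshold, Pearson's r was 0.883 and Spearman's rho 0.964, and r was 0.925 without the 2 libraries farthest from the median share (n = 9). In hair cell-like cells alone r was 0.812. The ages differ in both values and none has 6 libraries, so that no test and no correlation within an age is given. The order of the libraries was the same for both values within E16, P1 and P7, and opposite in the 2 E14 libraries.

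**Figure D3:**
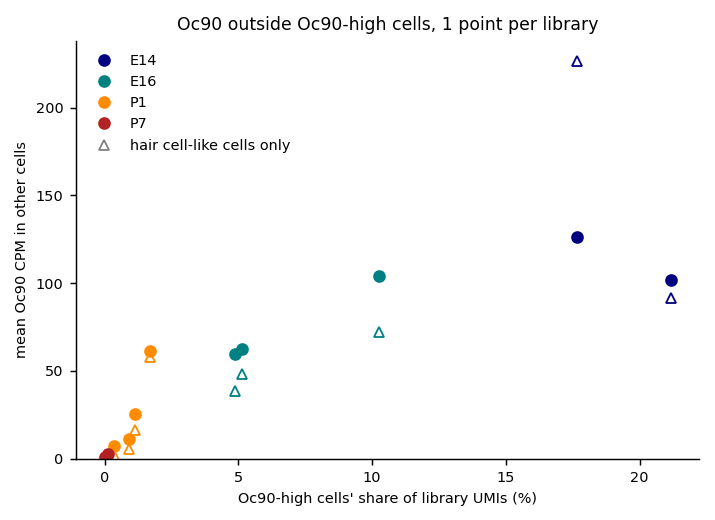
Mean Oc90 level in cells that are not Oc90-high (CPM) against the share of the library's UMIs that came from its Oc90-high cells (%), with 1 filled circle per library coloured by age and open triangles for hair cell-like cells alone. The level is 0.621 and 2.44 CPM in the P7 libraries and 126 and 102 CPM in those of E14.

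Free transcripts in the droplet fluid give every cell of a library the same mixture, in which the genes of 1 source keep the ratio that they have in that source. The level of each gene in the other cells was therefore set against the level that the ratio to Oc90 in Oc90-high cells would give. For Vmo1 the observed level was 1.19 times that level as the median of 9 libraries (0.557 to 2.59), and for Ttr 0.312 times (0 to 1.95). These genes were at 0.512 to 13.3 CPM and 0 to 2.28 CPM in the other cells of these libraries, and P1 replicate 1, with the most Oc90 of the P1 libraries, was also the highest of the P1 libraries for both. In the 2 P7 libraries Vmo1 was at 0.41 and 0 CPM. For Dapl1 the median was 1.78 times (0.453 to 30.5), and for Enpep 3.45 times (0.932 to 27.0). For Rnase1 it was 13.4 times (2.04 to 67.0), for Slc6a15 29.8 times (2.66 to 2328) and for Sparcl1 630 times (233 to 86510), all above 1 in 9 of 9 libraries. Slc26a4 had a value in 7 libraries, with a median of 159 times (35.01 to 332). The other cells include 16, 7 and 34 cells of E14, E16 and P1 that lie in the Oc90-high clusters but under the Oc90 threshold. The 34 at P1 had a mean of 680 CPM of Vmo1 (0 to 2133 over the 4 libraries). Without these cells, a choice added after the data had been seen, the median was 0.818 times for Vmo1 (0.573 to 2.86) and 0.324 times for Ttr (0 to 1.73), and Vmo1 in the P1 libraries was 0.514 to 9.30 CPM. In hair cell-like cells alone the median of 9 libraries was 0 times for both genes, on 0 to 2 UMIs of each at E14 and at E16. At P1 the median for Vmo1 there was 0.312 times (0 to 1.00, on 28 UMIs). Over all cells outside Oc90-high cells, median levels of Vmo1 and Ttr thus stood near or below the level set by Oc90. Those of Rnase1, Slc6a15, Slc26a4 and Sparcl1 were well above it.

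**Figure D4:**
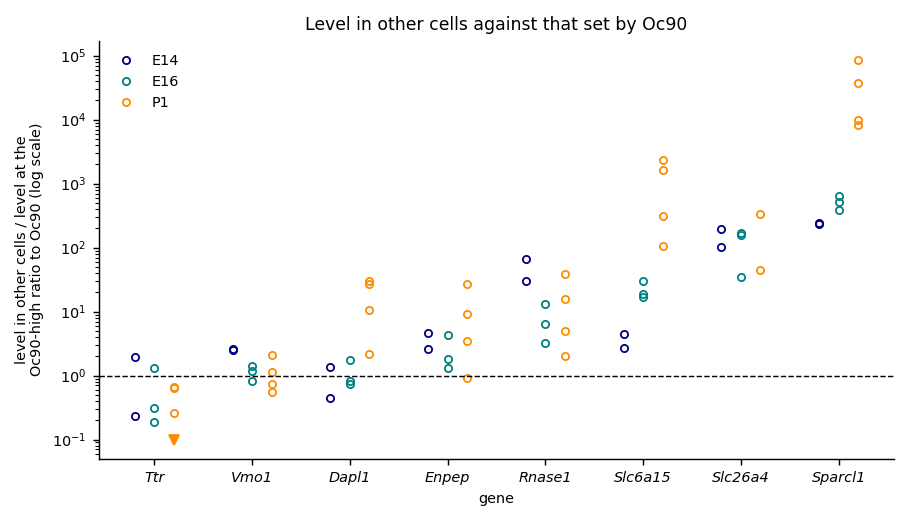
Level of each gene in cells that are not Oc90-high, divided by the level given by its ratio to Oc90 in the Oc90-high cells of the same library, on a log axis, with 1 circle per library coloured by age. The dashed line marks equality, and a triangle at the bottom stands for a level of 0. Vmo1 and Ttr scatter about or below the line, and Sparcl1 lies 233 times or more above it.

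Which cells held these genes was read from clusters named by marker genes. Names such as hair cell-like were rebuilt here from marker lists, with thresholds chosen once the clusters were known, and 15777 of the 29139 cells stayed unnamed, so that the levels are a description.

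Among the named classes of E14, E16 and P1 Sparcl1 was high in Kölliker's organ-like and inner phalangeal-like cells, and low in hair cell-like cells. It stood at 428 and 413 CPM in cells like those of Kölliker's organ, the tall epithelium medial to the hair cells, at E14, 509, 818 and 726 at E16 and 1065, 1404, 1367 and 1672 at P1. In inner phalangeal-like cells, the supporting cells around the inner hair cell, it was 694, 771 and 854 CPM at E16 and 1352, 2685, 2288 and 2448 at P1. Hair cell-like cells had 13.0 to 86.6 CPM at these 3 ages. At E16 and P1 the highest levels lay in unnamed clusters, with means of 1051 and 882 CPM in the leading 2 of E16 and 2466 to 4150 CPM in the leading 5 of P1. At P7 the highest level of any cluster was 8097 and 7992 CPM, in mesenchyme-like cells. Over all cells that are not Oc90-high, Sparcl1 was 168 and 181 CPM in the E14 libraries, 344, 400 and 460 in those of E16, 1045, 1594, 1451 and 1501 in those of P1 and 571 and 980 in those of P7. It rose from E14 to E16 by 1.15 on the log2 scale (SE 0.25, limma, adjusted p = 0.0184) and from E16 to P1 by 1.77 (SE 0.21, adjusted p = 0.000262), and was lower by 0.87 at P7 than at P1 (SE 0.24, adjusted p = 0.0201). In these cells 3.64% of 8934 genes were called higher and 5.4% lower at the first step, 6.78% and 6.27% at the second and 9.88% and 10.6% at the third. The first call was lost without E14 replicate 1 or 2 (adjusted p = 0.195 and 0.148) or E16 replicate 2 (0.0618), and the last without P7 replicate 4 (0.351) or P1 replicate 2 (0.0509), or with only the 2 ages (0.0628). The P7 libraries held 59 and 155 mesenchyme-like cells, a class not named at P1, and without them Sparcl1 stood at 312 and 227 CPM at P7, a value added after the data had been seen.

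Slc6a15 appeared in Kölliker's organ-like cells between E14 and E16. It was at 2.58 and 4.17 CPM there at E14, which rest on 4 and 7 UMIs, at 64.1, 106 and 50.1 CPM at E16 and at 95.1, 75.8, 73.4 and 59.7 CPM at P1. The ages E14 and E16 did not overlap. Unnamed clusters held it too, with a mean of 49.9 CPM in that led by Adgrg2 and Thrb at E16. At P1 the unnamed clusters among the 5 highest had means of 47.5 to 55.3 CPM. Over all cells that are not Oc90-high it was 3.51 and 3.57 CPM, then 11.1, 20.7 and 15.7, then 31.9, 25.1, 27.3 and 15.3, and 3.65 and 9.12 CPM at P7. It rose from E14 to E16 by 0.92 on the log2 scale (SE 0.23, limma, adjusted p = 0.0316) and fell from P1 to P7 by 1.09 (SE 0.22, adjusted p = 0.00347). The step between E16 and P1, 0.43, missed the threshold (adjusted p = 0.167), except without P1 replicate 4 (0.57, adjusted p = 0.0373). The first call was lost without E14 replicate 1 or 2 (adjusted p = 0.237 and 0.214) or E16 replicate 2 (0.113), and the last without P7 replicate 4 (0.0942). The first was also lost at a pseudocount of 50 (0.0595) and after quantile normalization (0.0945). Slc6a15 met the filter of a mean of 10 CPM only through E16 and P1, the higher groups of the called steps. Its means at E14 and P7, 3.54 and 6.38 CPM, lay under the 10 CPM added before the log. With no filter the adjusted p was 0.0468 for E14 to E16 and 0.00592 for P1 to P7 (limma). The class of Kölliker's organ-like cells held 2185 cells at P1 and was not named at P7, and the part of this in the lower level at P7 was not tested. The highest cluster of P7 had 408 CPM, in 15 cells of 1 library, and was an unnamed cluster led by Mt3 and Nefh. Glia-like cells followed with 29.6 CPM ± 41.8 (SD, n = 2).

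Among the named classes Rnase1 was found in supporting cells, in the lateral prosensory cells grouped with them and in outer sulcus-like cells. Pillar and Deiters-like cells, which flank and hold the outer hair cells, shared a class with lateral prosensory cells. All 198 cells of this class at E14 lay in a cluster led by Fgfr3 and Prox1, which the paper takes as lateral prosensory markers. Rnase1 in the class was 29.6 and 16.6 CPM in the E14 libraries and 18.3, 28.7 and 34.6 in those of E16. It was 85.3, 38.1, 45.7 and 25.4 in those of P1 and 381 and 293 in those of P7. From E16 on, its highest mean in the class lay in Npy-led clusters: 82.3 CPM (0 to 135 over libraries), then 117, then 489. The other E16 cluster of the class, led by Prox1, averaged 15.6 CPM. Inner phalangeal-like cells had 0, 0 and 34.6 CPM at E16 and 84.1, 72.0, 34.9 and 39.5 CPM at P1. Cells like those of the outer sulcus or its lesser epithelial ridge precursor had 2.45 and 5.93 CPM at E14, 16.3 to 110 CPM at P1 and 1311 and 853 CPM in the 17 cells of P7. Unnamed clusters held it as well. Those among the 5 highest of P7 had means of 289 to 379 CPM, and the E14 cluster led by Fgf20 and Tectb had 18.3 CPM. Over all cells that are not Oc90-high Rnase1 was 4.51 and 3.42 CPM in the E14 libraries, 2.54, 4.35 and 3.72 in those of E16, 27.1, 9.96, 6.55 and 5.83 in those of P1 and 105 and 95.9 in those of P7. It rose from P1 to P7 by 2.39 on the log2 scale (SE 0.27, limma, adjusted p = 4.99e-05), while the step from E16 to P1, 0.63, did not pass (adjusted p = 0.101) except without P1 replicate 4 (0.77, adjusted p = 0.0473). Rnase1 met the filter of a mean of 10 CPM only through P7, the higher group. The other cells of the 9 libraries of E14, E16 and P1 averaged 7.55 CPM. With no filter the adjusted p for P1 to P7 was 8.98e-05 (limma).

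Slc26a4 and Enpep were highest in a few small clusters. In outer sulcus or lesser epithelial ridge-like cells Slc26a4 was 46.1 and 36.8 CPM in the E14 libraries, 7.62, 24.8 and 23.8 in those of E16, 23.2, 31.3, 0 and 3.45 in those of P1 and 0 and 11.3 in those of P7, resting on 0 to 90 UMIs. Within that class at E14, a cluster of 252 cells led by Lgals1 and Sostdc1 had 60.4 and 63.2 CPM of Slc26a4 and 22.9 and 30.7 CPM of Enpep. An unnamed cluster of 179 cells led by Lgals1 and Lmx1a had 57.6 to 88.2 CPM of Slc26a4 and 36.2 to 48.2 CPM of Enpep in the 3 E16 libraries. Outside Oc90-high cells these clusters were the highest of their age for both genes. The exception, at E14, was 9 cells of an Oc90-high cluster that lay below the Oc90 threshold. Oc90-high cells were above these clusters for Enpep, at 162 and 205 CPM at E14 and 219 to 490 CPM at E16. For Slc26a4 they were below, at 13.4 and 19.5 CPM at E14 and 6.64 to 30.4 CPM at E16. Among the named Oc90-high clusters, that of Frem2 at E14 overlapped the E14 cluster here for Slc26a4. At P1 Slc26a4 was highest outside Oc90-high cells in the 34 cells of the Postn cluster that lay below the threshold, with 83.0 CPM ± 97.0 (SD, n = 4). At P7 Enpep was at 14.1 and 130 CPM in an unnamed cluster of 44 cells led by Ifitm5 and Bglap2 and at 52.2 and 26.2 CPM in mesenchyme-like cells.

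Dapl1 was seen in hair cell-like cells after birth. It was 0 and 2.98 CPM in the E14 libraries, 2.71, 2.82 and 0 in those of E16, 19.3, 29.4, 26.1 and 22.3 in those of P1 and 41.3 and 63.0 in those of P7, on 0 to 3 UMIs in each embryonic library and 37 to 66 in each postnatal one. Hair cell-like cells at P1 stood 17.2 to 1161 times above the level set by Oc90. Kölliker's organ-like cells of the same libraries had 0 to 2.34 CPM. In cells drawn down to 1500 UMIs, 3.96%, 5.62%, 3.11% and 2.28% of hair cell-like cells at P1 had a Dapl1 UMI, against 0% to 0.216% of Kölliker's organ-like cells.

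Oc90 itself was not even over the other classes at P1. It was 98.2, 173, 163 and 80.1 CPM in cells like Hensen's cells, which lie lateral to the outer hair cells, and 147, 46.8, 95.8 and 292 CPM in inner phalangeal-like cells, against 57.6, 5.66, 1.75 and 16.4 CPM in hair cell-like cells. Both supporting classes lay above hair cell-like cells in 4 of 4 libraries. Vmo1 did not follow: Hensen-like cells held 3, 1, 0 and 0 Vmo1 UMIs beside 74, 36, 28 and 44 of Oc90, which is 0 to 0.348 times the level set by Oc90, and inner phalangeal-like cells held 4, 0, 0 and 0 Vmo1 UMIs, 0 to 0.323 times that level. In cells drawn down to 1500 UMIs, 11.1%, 18.5%, 10.3% and 6.59% of Hensen-like cells had an Oc90 UMI, and 7.05%, 1.88%, 0.444% and 3.19% of hair cell-like cells. At P7 the 17 outer sulcus-like cells held 5 and 5 Oc90 UMIs in the 2 libraries, 92.2 and 36.5 CPM.

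**Figure D5:**
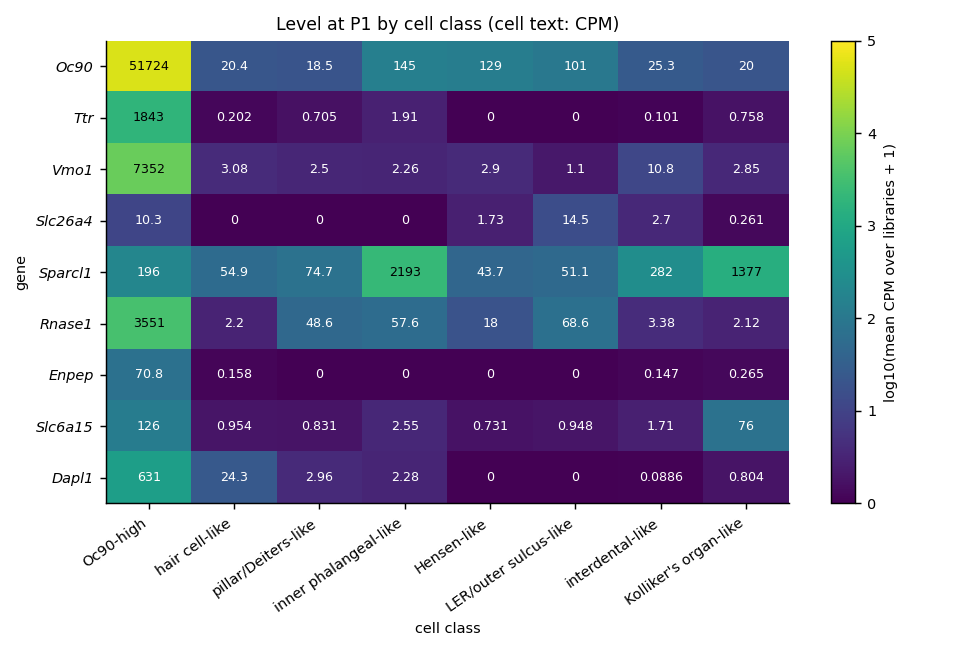
Mean level over the P1 libraries of the 9 genes in Oc90-high cells and in classes named by markers, with the CPM printed in each cell and colour on a log10(CPM + 1) scale, to be read along a row. LER is the lesser epithelial ridge. Among the named classes outside Oc90-high cells Sparcl1 is high in inner phalangeal-like and Kölliker's organ-like cells, Slc6a15 in Kölliker's organ-like cells and Dapl1 in hair cell-like cells.

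The lists of related roles were read in the other cells as well, where 3.64%, 6.78% and 9.88% of all genes were called higher at the 3 steps and 5.4%, 6.27% and 10.6% lower. Genes of otoconia and acellular gels gave 0 higher and 1 lower of 9 tested at the step from E14 to E16, 2 higher at that to P1 and 1 higher and 1 lower at that to P7, led by Otol1 and by the tectorins Tectb and Tecta. Endolymph ion transport gave 0, 4 and 4 higher of 7, among them Atp1b2 at both later steps, and 1 lower at the last step, Slc12a2, the chloride cotransporter. The transcription factors gave 1 lower of 2 from E16 to P1, Gata3, and 1 higher from P1 to P7, Gata2. Thyroid hormone and retinol carriers gave 1, 1 and 0 higher of 7, and 4 lower at the last step, where the retinoic acid binding protein Crabp1 went from 1069 CPM ± 366 (SD, n = 4) to 0.986 CPM ± 0.067 (SD, n = 2). Crabp1 is also one of the markers of Kölliker's organ used here, whose class was not named at P7. The peptidase Dpp4, at the last step, the ribonuclease inhibitor Rnh1, from E16 to P1, and the creatine transporter Slc6a8, at the last step, were each the 1 gene called in their lists, all higher, of 1, 1 and 2 tested.

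The step from E16 to P1 was also compared between Oc90-high and other cells, as a difference of age effects in 1 fit, added after the data had been seen. It was called for 0.187% of 9084 genes. Vmo1 rose more in Oc90-high cells, by 4.04 on the log2 scale (SE 0.35, limma, adjusted p = 0.000694), and by 3.06 with the Postn clusters alone (adjusted p = 0.00724). Vmo1 met the filter through Oc90-high cells. Its mean in other cells went from 1.11 to 4.77 CPM, under the 10 CPM added before the log, which holds that step near 0. The difference therefore mostly restates the rise in Oc90-high cells and does not compare the 2 steps. Sparcl1 differed by -2.58 (SE 0.41, adjusted p = 0.0357). With the Postn clusters alone this difference was 0.04 and was not called (adjusted p = 0.985). Rnase1 differed by 3.23 and missed the threshold (adjusted p = 0.056). It too met the filter through Oc90-high cells. Its mean in other cells went from 3.54 to 12.4 CPM, near the 10 CPM added before the log, which understates that step. At the step from E14 to E16 no gene was called.

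For each gene the genes most like it were sought over 85 means of a class in a library, by Pearson's r of the log2 levels among 9268 genes. The points share libraries, and Oc90-high classes at the upper end set most of the values. Ttr was nearest to Oc90 (r = 0.898), and Otx2 (0.891) and the noncoding A930003A15Rik (0.889) followed. A930003A15Rik (0.980), Lypd2 (0.974) and Cndp1 (0.966) were nearest to Ttr, and Lypd2 (0.955), A930003A15Rik (0.937) and Ttr (0.935) to Vmo1. Dapl1 was nearest to Ttr (0.936), A930003A15Rik (0.933) and Lypd2 (0.921). Enpep was nearest to Anxa1 (0.948), Otx2 (0.903) and Ccdc3 (0.895), and Slc6a15 to Kctd8 (0.857), Lrp2 (0.855) and Otx2 (0.787). The leading value was lower for the other 3 genes, Ptn (0.797), Pthlh (0.788) and Tnfrsf19 (0.785) for Sparcl1, Pla2g5 (0.737), Itpr1 (0.725) and Vmo1 (0.719) for Rnase1, and Fgfr2 (0.700), Nog (0.661) and Sbspon (0.644) for Slc26a4.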

How the data were processed

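Droplet single-cell libraries (10x Chromium) of dissociated cochlear epithelium were read as tables of natural log values that the authors deposited, 1 per age. Per the submitters' processing notes, reads were aligned to mm10 with Cell Ranger 2.1.1 and the cells were filtered and normalized with Seurat 2.0. Each deposited value is a natural log, ln(1 + 10000 s), where s is the part of a cell's UMIs that came from the gene. The UMIs worked back from the values were whole numbers within 2%, which was tested on the tables. No per-sample column was left unused (0).

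The genes, lists and tests were chosen with earlier results of these data known. Levels are the mean over cells of UMIs per 1000000 (CPM) in each library, and libraries, not cells, are the replicates. Ages were compared with limma 3.58.1 (R 4.3.3, mean trend) on log2(CPM + 10), which understates changes of low genes, in libraries with at least 5 Oc90-high cells for genes that averaged 10 CPM or more. The threshold was an adjusted p of 0.05 (Benjamini-Hochberg, every gene of the fit). Named genes are the 9 members, up to 4 genes past the threshold in each list of related roles at each step, and the 3 genes of highest correlation with each member. The fits were tested on simulated data. For shares of cells with a UMI, each cell was drawn down to 1500 UMIs. Intervals are exact (Clopper-Pearson) and cover counting error only.

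Cells were clustered per age with scanpy 1.11.5 (2000 variable genes without the 9 members, 30 components, Leiden resolution 2, seed 1) and named from marker lists. Doublets were called with Scrublet (0.0355% to 2.59% of a library, at most 0.182% of the embryonic ones) and kept. Alternatives were other Oc90 thresholds (0.2% and 1%), pooled UMIs, Oc90 left out of totals, cells over 3000 genes or 15000 UMIs left out, doublets left out, other pseudocounts, no filter, only the 2 ages, a replicate block, a robust fit, quantile normalization and each library left out.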

Additional observations from a re-analysis of the deposited data

Results flagged for a closer look

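Of 19 groups of 4 libraries, 2 held a library far from the others, and chance gives about 1 in 20. For Slc6a15 in the Oc90-high cells of P1, replicate 1 had 257 CPM against 72.0 to 91.3 CPM elsewhere, a gap of 0.895 of the whole range. For Ttr in the other cells of P1, replicate 1 had 1.85 CPM against 0 to 0.31 CPM elsewhere, a gap of 0.833 of the range.

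The age effect from E16 to P1 differed between Oc90-high and other cells for Vmo1, by 4.04 on the log2 scale, and for Sparcl1, by -2.58, each tested as the difference itself with limma (adjusted p = 0.000694 and 0.0357). For Vmo1 the other cells averaged 1.11 and 4.77 CPM, under the 10 CPM added before the log. Its difference therefore mostly restates the rise in Oc90-high cells. With the Postn clusters alone the differences were 3.06 for Vmo1 (adjusted p = 0.00724) and 0.04 for Sparcl1, which was not called (adjusted p = 0.985).

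Outside the comparisons, the 4 Oc90-high cells of P7 replicate 5 held 25641 CPM of Vmo1, 11306 CPM of Rnase1 and 203 CPM of Slc26a4, the last on 2 UMIs, and no Ttr or Enpep UMI. The other cells of that library had 0 CPM of Vmo1, 95.9 of Rnase1 and 0.13 of Slc26a4.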

How the results depend on the processing

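Over the alternatives, the rise of Vmo1 from E16 to P1 in Oc90-high cells kept its direction and call in 23 of 23, and that of Rnase1 in 22, the exception being the fit with no filter on low values (adjusted p = 0.0844). The call for Vmo1 from E14 to E16 was lost in 13 of 23, and that for Enpep from E16 to P1 in 3 (no filter, adjusted p = 0.131, and without E16 replicate 1 or 2), with its direction reversed in 1. The cause of these shifts was not tested. Depth limits Slc26a4 most, which held 0 to 57 UMIs in the Oc90-high cells of a library. Counts of called genes moved more than the members did. In Oc90-high cells, genes higher at E16 than at E14 (17) were 8 without cells over 3000 genes or 15000 UMIs, 0 at a pseudocount of 1, 27 at 50, 93 with only the 2 ages and 36 after quantile normalization, and genes lower (0, with 125 at an unadjusted p under 0.05 in limma) were 1 in the Postn clusters, 1 at a pseudocount of 50, 216 with no filter, 5 with the 2 ages and 2 after quantile normalization. Genes higher at P1 than at E16 (37) were 22, 16 at a pseudocount of 1, 5 with no filter and 65 after quantile normalization, and genes lower (110) were 61, 33 and 20 under the first 3 of these. In other cells, with only the 2 ages, genes higher and lower at E16 were 508 and 1282 (325 and 482) and at P1 326 and 305 (606 and 560). Quantile normalization gave 259 lower at E16, and no filter gave 920 lower at P1 and 1816 higher at P7 (883, with 943 lower).

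Leaving out 1 library gave 0 to 27 genes higher at E16 and 0 to 0 lower in Oc90-high cells, and 6 to 63 higher and 10 to 211 lower at P1. In other cells it gave 53 to 547 and 23 to 1262 at E16, 285 to 1022 and 239 to 950 at P1, and 358 to 1309 and 364 to 1216 at P7. Slc26a4 in Oc90-high cells from E14 to E16 (-0.12, and -0.49 to 0.15 without 1 library) turned to 0.030 at an Oc90 threshold of 1%, 0.20 with the block, 0.017 after quantile normalization, 0.049 without E14 replicate 2 and 0.15 without E16 replicate 1. Slc6a15 ranged from -0.40 to 0.11 and turned without E14 replicate 1. Rnase1 in other cells from E14 to E16 (-0.05, and -0.10 to 0.011 without 1 library) turned to 0.068 with the block, 0.011 without E14 replicate 1 and 0.00822 without E16 replicate 1. In the Postn clusters Ttr, Sparcl1, Enpep and Dapl1 from E16 to P1 turned to -0.61, 1.80, 0.71 and -0.34. The levels of Slc6a15 in Kölliker's organ-like cells at P1 and of Slc26a4 in lesser epithelial ridge-like cells at E14 were 60.9 and 34.7 CPM with clusters at resolution 1.

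By Spearman's rho the leading neighbours were weaker, 0.446 for Oc90 with Ttr, 0.572 for Ttr with A930003A15Rik, 0.632 for Vmo1 with Lypd2, 0.521 for Slc26a4 with Fgfr2, 0.471 for Rnase1 with Pla2g5, 0.615 for Enpep with Anxa1, 0.675 for Slc6a15 with Kctd8 and 0.451 for Dapl1 with Ttr. In embryonic ages alone r was 0.879 for Slc26a4 with Fgfr2 and 0.574 for Rnase1 with Pla2g5.

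The replicate number is shared across ages. Deviations of same-numbered libraries from the mean of their age had r of -0.085 to 0.075 over 7 pairs in Oc90-high cells and -0.279 to 0.114 over 8 pairs in other cells. The 2 libraries of E14, and those of P7, mirror each other in such deviations, so that these values cannot exclude a pairing. The main fits used none. With the replicate number as a block, Oc90-high cells gave 62 genes higher and 3 lower at E16 and 60 higher and 179 lower at P1, and other cells 463 higher and 476 lower at P7. In Oc90-high cells Ttr and Rnase1 then passed from E14 to E16 (1.41 and 2.27, limma, adjusted p = 0.0251 and 0.0116), and in other cells Slc6a15 from P1 to P7 no longer did (-0.89, adjusted p = 0.0966).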
